A study of Mus musculus with 28 samples.

Results

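The urea cycle and ammonia-handling genes of mouse liver were Cps1, Otc, Ass1, Asl, Arg1, Nags, Slc25a15, Gls2, Glul and Glud1, found by symbol, 10 of 17792 genes in the deposited table. All 10 passed the filter of at least 1 FPKM (fragments mapped per kilobase of transcript, relative to all mapped fragments of the library) in at least 3 libraries. The series profiled whole liver of C57BL/6 mice, labelled male and weighing 20 to 30 g, in 28 RNA-seq libraries. Mice were wild type (WT) or carried a knockout of Pparg restricted to macrophages (KO), and were gavaged with DEHP (di(2-ethylhexyl) phthalate, a softener of plastics that acts on rodent liver through PPARalpha) at 625 mg/kg body weight or with the vehicle, 0.5% CMC (carboxymethyl cellulose), for 28 or 90 days. Each genotype was thus studied with each agent at each time, in 8 groups of 3 libraries at 28 days (replicates 5 to 7) and 4 libraries at 90 days (replicates 1 to 4). Per the labels a group held 12 mice, and the mice behind a library are not named, so p-values measure the spread between these libraries, which may be technical. The driver of the knockout was not given in the sources used here, and most cells of whole liver are not macrophages.

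The urea cycle turns toxic ammonia into urea, and in mammals the whole cycle runs in hepatocytes, mainly those near the portal vein. CPS1 joins ammonia and bicarbonate in the mitochondrion and works only when bound by N-acetylglutamate, which NAGS makes. OTC adds ornithine to give citrulline, the carrier encoded by Slc25a15 exchanges ornithine and citrulline across the inner membrane, and ASS1, ASL and ARG1 complete the cycle in the cytosol. GLS2 releases ammonia from glutamine and GLUD1 releases it from glutamate, while glutamine synthetase (Glul) of the hepatocytes around the central vein captures the ammonia that the cycle leaves.

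Several facts of the libraries bear on all values. Lyz2, a macrophage gene, separated the libraries by labelled genotype: it lay between 38.46 and 120.01 FPKM in WT libraries and between 0.73 and 2.67 in KO libraries. Pparg itself was low in whole liver and was not called between genotypes in any of the 4 groupings, so the knockout itself is not checked by these values. All 12 libraries at 28 days held Xist, at 26.72 to 41 FPKM, with Ddx3y, Kdm5d, Uty and Eif2s3y at 0, although labelled male. The 16 libraries at 90 days held Xist at 0 to 0.02 FPKM and Ddx3y at 6.27 to 12.96, so time and sex-chromosome transcripts cannot be told apart, and no test was made between times within an agent. The liver label fitted the markers, with 6 hepatocyte markers summing to between 27223 and 61496 FPKM in every library. Exocrine pancreas markers summed to over 100 FPKM in 5 libraries at 90 days (WT CMC replicate 4, WT DEHP replicate 4, and KO DEHP replicates 1, 2 and 3), and endothelial markers to under 50 FPKM in 3 libraries (WT CMC replicate 7 and WT DEHP replicate 5 at 28 days, and KO DEHP replicate 4 at 90 days). The summed FPKM was 514267 to 547757 at 28 days and 573429 to 647703 at 90 days. From the spacing of low values the depth was roughly 7.48 to 11.76 M fragments per library (M, mega). The lowest value of any of the 10 genes was 26.62 FPKM, for Nags in KO CMC replicate 2 at 90 days. At the lowest depth of any library it would rest on about 404 fragments, and the depth of its own library was roughly 8.94 M.

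Promoter sequence is shown for 3 genes that stand for 3 positions in the pathway and whose table start matches the gene start: the cytosolic synthetase Ass1, the activator synthase Nags and the ammonia-capturing Glul. Each run is the 250 bases before the annotated start, 5′ to 3′ on the plus strand, from RefSeq promoters of GRCm38.p6. They lie at chr2:31470020-31470269 for Ass1, chr11:102145263-102145512 for Nags and chr1:153899679-153899928 for Glul. Capitals mark motif matches.
Ass1: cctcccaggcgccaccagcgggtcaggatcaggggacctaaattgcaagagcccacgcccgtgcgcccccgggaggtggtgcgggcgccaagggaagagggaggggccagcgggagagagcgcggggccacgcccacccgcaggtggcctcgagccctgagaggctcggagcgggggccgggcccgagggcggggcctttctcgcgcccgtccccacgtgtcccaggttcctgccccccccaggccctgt
Nags: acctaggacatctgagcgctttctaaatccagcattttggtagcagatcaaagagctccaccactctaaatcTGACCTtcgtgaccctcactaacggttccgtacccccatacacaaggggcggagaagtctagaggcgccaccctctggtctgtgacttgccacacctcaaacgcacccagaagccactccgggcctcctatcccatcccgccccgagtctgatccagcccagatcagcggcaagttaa
Glul: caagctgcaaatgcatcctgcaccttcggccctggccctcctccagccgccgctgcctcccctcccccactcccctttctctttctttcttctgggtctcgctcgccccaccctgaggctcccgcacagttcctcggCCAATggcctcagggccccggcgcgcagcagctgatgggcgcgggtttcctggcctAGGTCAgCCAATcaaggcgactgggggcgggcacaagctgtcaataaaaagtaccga
The motifs searched on both strands were the TATA box TATAAA, the CCAAT box, the C/EBP-type TTGCNNAA, the HNF4-type CAAAGTCCA, the nuclear receptor core AGGTCA, the direct repeat of that core with 1 base between the copies (which contains the core) and the cAMP response element TGACGTCA. Glul held CCAAT starting 113 and 50 bases before the start and AGGTCA 57 bases before it. Nags held AGGTCA on the reverse strand, printed as TGACCT, 178 bases before the start. Ass1, with 75.6% G and C against 64.8% in Glul and 55.6% in Nags, held none of the 7. Among 32851 windows of the same length, the core AGGTCA was in 14%, the CCAAT box in 33.8%, the TATA box in 12.4%, the C/EBP-type element in 9.56%, the cAMP response element in 1.55%, the HNF4-type element in 0.384% and the direct repeat in 0.0335%. Otc, Slc25a15 and Glud1 also had promoter entries, so 6 of the 10 genes matched.

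In vehicle-treated WT liver at 28 days the levels spanned a wide range. Ass1 stood highest at 2240 FPKM, the 31st most abundant gene of the table, followed by Arg1 at 896, Cps1 at 623, Glud1 at 442, Glul at 427, Asl at 236, Gls2 at 161, Otc at 158, Slc25a15 at 101 and Nags at 44.3. Glud1 and Glul, and likewise Gls2 and Otc, lay closer together than the spread of their 3 libraries. Ass1 stayed the most abundant of the 10 and Nags the least abundant in all 8 groups.

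DEHP for 28 days lowered transcripts of the urea cycle and ammonia handling in both genotypes, with Cps1, Otc, Asl and Gls2 called in every alternative run. In WT liver 7 of 10 fell and none rose, where 6.17% of the 11213 genes tested were called lower and 16.5% were called in either direction (limma, adjusted p under 0.05). The WT count was 4 without WT CMC replicate 5 or WT DEHP replicate 7, with no filter on low values, in a fit of the same time point and in a fit of the 2 groups. In KO liver 9 of 10 fell and none rose, where 8.77% of all genes were called lower and 20.4% in either direction. The KO count was 6 to 8 with 1 library left out and 8 to 10 in the other alternatives. On the log2(FPKM + 1) scale the fold change had a median of -0.53 over the 10 genes against -0.0072 over all genes tested in WT, and -0.68 against -0.0381 in KO. DEHP and CMC libraries did not overlap for 6 of the 10 genes in WT and for all 10 in KO, where 11% and 22.5% of all genes were lower without overlap. These are bulk values, in which fewer cells of a type and less RNA per cell cannot be told apart.

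**Figure D1:**
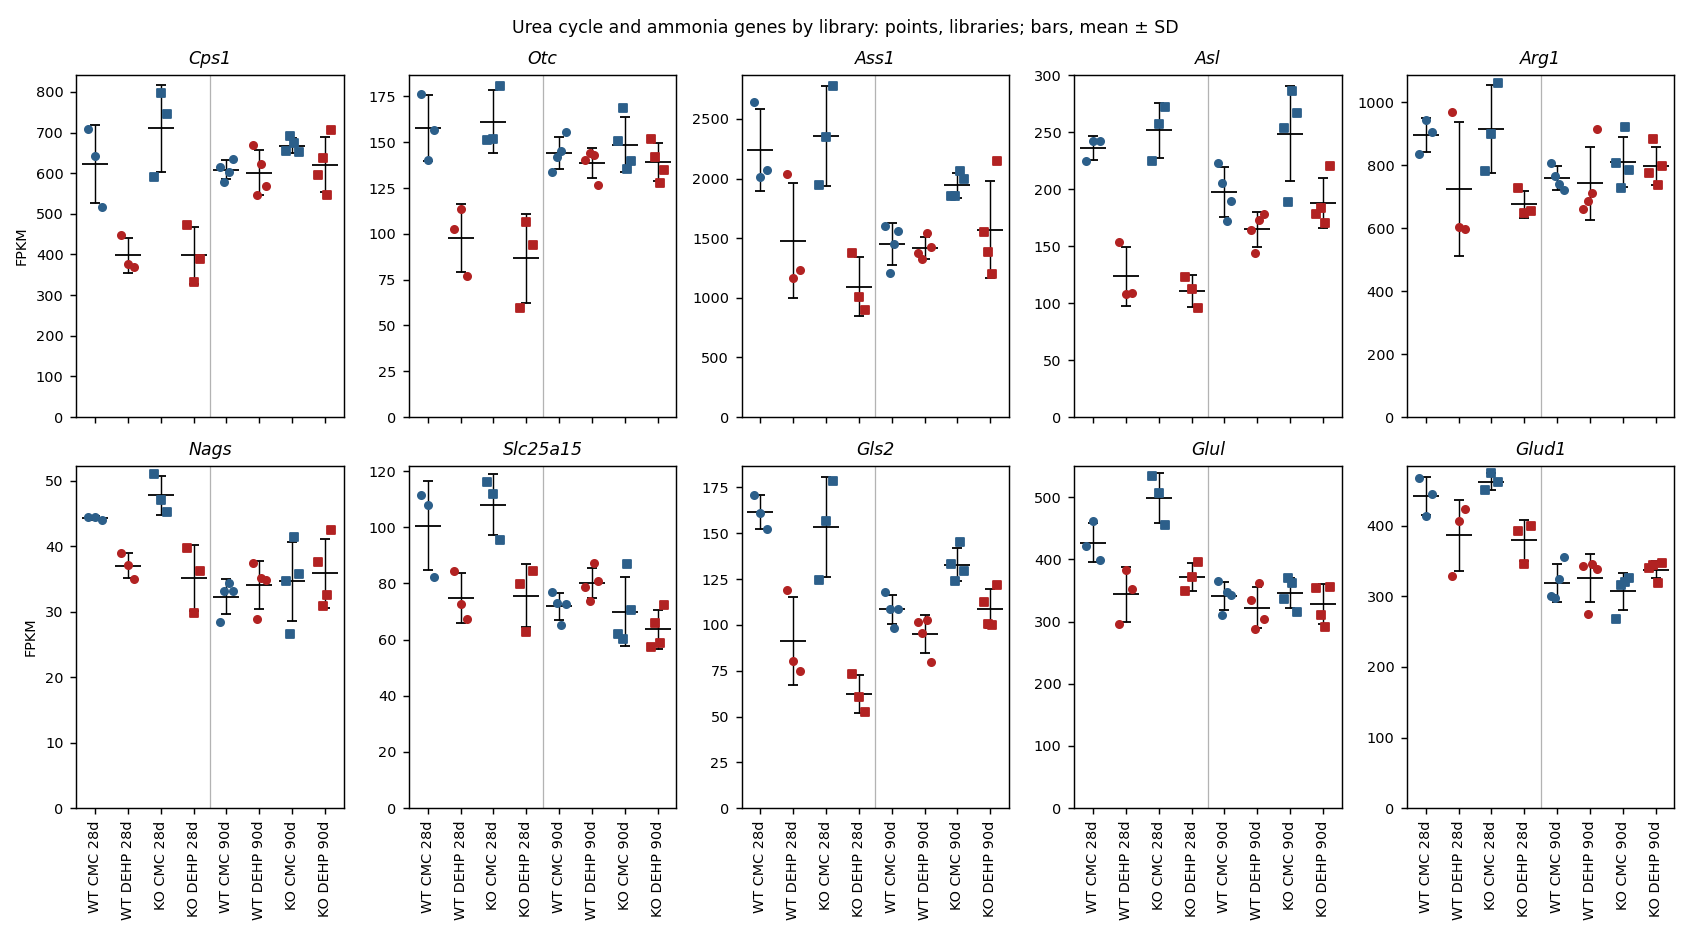
FPKM of each of the 10 genes in every library (vertical axes, linear and from 0), by group: circles WT, squares KO, blue CMC, red DEHP; bars give the mean and SD of 3 libraries at 28 days and 4 at 90 days. At 28 days the red points of Cps1, Otc, Asl and Gls2 lie below all blue points of their genotype, and at 90 days most red and blue points share a range.

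The mitochondrial steps of the cycle come first. Cps1 (Entrez 227231, chromosome 1, 67122426 to 67231267) read 708, 642 and 518 FPKM in the WT CMC libraries of 28 days (replicates 5, 6 and 7) and 448, 376 and 370 in the WT DEHP libraries. In KO liver it read 589, 796 and 745 FPKM under CMC and 473, 332 and 389 under DEHP. Every DEHP library lay below every CMC library of its genotype. Mean Cps1 fell by 36.1% in WT, from 623 ± 96.4 to 398 ± 43.1 FPKM (SD, n = 3; log2 fold change -0.64, SE 0.13, limma adjusted p = 0.00108). In KO liver it fell by 44%, from 710 ± 108 to 398 ± 70.6 FPKM (log2 -0.84, SE 0.13, adjusted p = 3.69e-05).

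Otc (Entrez 18416, chromosome X, 10252230 to 10321024), the citrulline-forming enzyme, read 176, 140 and 157 FPKM in WT CMC and 103, 113 and 77.1 in WT DEHP. Its KO libraries read 151, 152 and 181 FPKM under CMC and 59.6, 107 and 93.9 under DEHP. Again the agents did not overlap in either genotype. The log2 fold change was -0.70 (SE 0.15, adjusted p = 0.00208) in WT and -0.92 (SE 0.15, adjusted p = 7.82e-05) in KO. Otc is X-linked, and the libraries of 28 and 90 days differ in Xist, so its levels are not compared between times.

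Slc25a15 (Entrez 18408, chromosome 8, 22375550 to 22398621), the ornithine and citrulline exchanger, read 112, 108 and 82.3 FPKM in WT CMC and 84.4, 72.5 and 67.2 in WT DEHP, so that the lowest vehicle library lay within the DEHP range. KO libraries read 116, 112 and 95.6 FPKM under CMC and 79.6, 62.9 and 84.4 under DEHP, with no overlap. It fell by log2 0.42 in WT (SE 0.14, adjusted p = 0.0398) and by 0.51 in KO (SE 0.14, adjusted p = 0.00877). The WT call was lost without WT CMC replicate 5 or 6 or WT DEHP replicate 6 or 7 (adjusted p from 0.102 to 0.177, and from 0.00531 to 0.177 over 15 alternatives). Without KO DEHP replicate 6 the KO call was lost too (adjusted p = 0.0819, the highest of 14 alternatives, the lowest being 0.00131).

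Nags (Entrez 217214, chromosome 11, 102145513 to 102149528), whose product makes the CPS1 activator, was tight in WT CMC at 44.5, 44.5 and 44 FPKM and read 39, 37.1 and 35 in WT DEHP. These groups did not overlap, yet the log2 fold change of -0.25 (95% interval -0.53 to 0.02) missed the threshold at an adjusted p of 0.224. In KO liver Nags read 51.1, 47.1 and 45.2 FPKM under CMC and 39.7, 29.8 and 36.1 under DEHP, and fell by log2 0.44 (SE 0.13, adjusted p = 0.0194). That call was lost without KO CMC replicate 5 (adjusted p = 0.0786) or KO DEHP replicate 6 (0.137), within a range of 0.00201 to 0.137 over 14 alternatives.

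Among the cytosolic enzymes, Asl had the lowest log2 fold change in both genotypes and Arg1 the one nearest 0. Asl (Entrez 109900, chromosome 5, 130011258 to 130024381), which cleaves argininosuccinate to arginine and fumarate, read 224, 242 and 242 FPKM in WT CMC and 154, 108 and 109 in WT DEHP. KO libraries read 225, 257 and 272 FPKM under CMC and 123, 113 and 95.7 under DEHP. The lowest vehicle library was far above the highest DEHP library in both genotypes. Mean Asl fell by 47.8% in WT (log2 -0.95, SE 0.15, adjusted p = 3.93e-05) and by 56% in KO (log2 -1.18, SE 0.15, adjusted p = 1.59e-06).

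Ass1 (Entrez 11898, chromosome 2, 31470270 to 31520670), the argininosuccinate synthetase whose promoter is printed above, read 2639, 2010 and 2070 FPKM in WT CMC and 2036, 1168 and 1237 in WT DEHP. WT DEHP replicate 5 thus lay inside the vehicle range, and the other DEHP libraries well below it. In KO liver Ass1 read 1943, 2352 and 2776 FPKM under CMC and 1374, 1006 and 900 under DEHP, without overlap. It fell by log2 0.63 in WT (SE 0.20, adjusted p = 0.0317) and by 1.12 in KO (SE 0.20, adjusted p = 0.000194). The WT call was lost without WT CMC replicate 5 or WT DEHP replicate 6 or 7 (adjusted p from 0.138 to 0.16, and from 0.00145 to 0.16 over 15 alternatives).

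Arg1 (Entrez 11846, chromosome 10, 24915207 to 24927470), which releases urea from arginine, read 837, 944 and 907 FPKM in WT CMC and 970, 604 and 599 in WT DEHP. The highest value of both groups was thus WT DEHP replicate 5, one of the libraries low in endothelial markers. Its log2 fold change of -0.34 (95% interval -0.65 to -0.04) was not called (adjusted p = 0.128), while without that library it was -0.57 (adjusted p = 0.00326, in a range up to 0.414 over 15 alternatives). KO libraries read 783, 899 and 1061 FPKM under CMC and 726, 650 and 655 under DEHP, and Arg1 fell by log2 0.42 (SE 0.15, adjusted p = 0.0449). The KO call was lost when any library but KO CMC replicate 5 was left out (adjusted p from 0.0558 to 0.218, and from 0.00559 to 0.218 over 14 alternatives).

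Of the genes that release or capture ammonia outside the cycle, Gls2 (Entrez 216456, chromosome 10, 128194635 to 128210004), the liver glutaminase, had the lowest log2 fold change of the 10 genes in KO. It read 171, 161 and 152 FPKM in WT CMC and 119, 80 and 74.8 in WT DEHP, and its mean fell by 43.5% (log2 -0.85, SE 0.15, adjusted p = 0.000199). KO libraries read 124, 156 and 179 FPKM under CMC and 73.2, 60.7 and 52.7 under DEHP, and the mean fell by 59.4% (log2 -1.28, SE 0.15, adjusted p = 5.61e-07). The agents did not overlap in either genotype.

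Glul (Entrez 14645, chromosome 1, 153899929 to 153909723), the glutamine synthetase, read 422, 461 and 398 FPKM in WT CMC and 296, 383 and 352 in WT DEHP. In KO liver it read 534, 506 and 456 FPKM under CMC and 350, 372 and 395 under DEHP. All DEHP libraries lay below all vehicle libraries of their genotype. Glul fell by log2 0.32 in WT (SE 0.11, adjusted p = 0.0445) and by 0.42 in KO (SE 0.11, adjusted p = 0.00606). The WT call rested on the setting: it was lost in 9 of 15 alternatives, among them leaving out WT CMC replicate 5 or 6 or WT DEHP replicate 5 or 7 (adjusted p from 0.0717 to 0.218, and from 0.00977 to 0.218 over all 15).

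Glud1 (Entrez 14661, chromosome 14, 34310727 to 34345033), glutamate dehydrogenase, was the least changed. It read 467, 414 and 445 FPKM in WT CMC against 329, 407 and 423 in WT DEHP, which overlap, and 451, 475 and 462 in KO CMC against 392, 346 and 399 in KO DEHP, which do not. The log2 fold changes were -0.20 in WT (95% interval -0.42 to 0.02, adjusted p = 0.22) and -0.29 in KO (95% interval -0.50 to -0.07, adjusted p = 0.0526). The KO value passed with each library scaled to one upper quartile (log2 -0.34, adjusted p = 0.00815, in a range of 0.00281 to 0.219 over 14 alternatives).

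**Figure D2:**
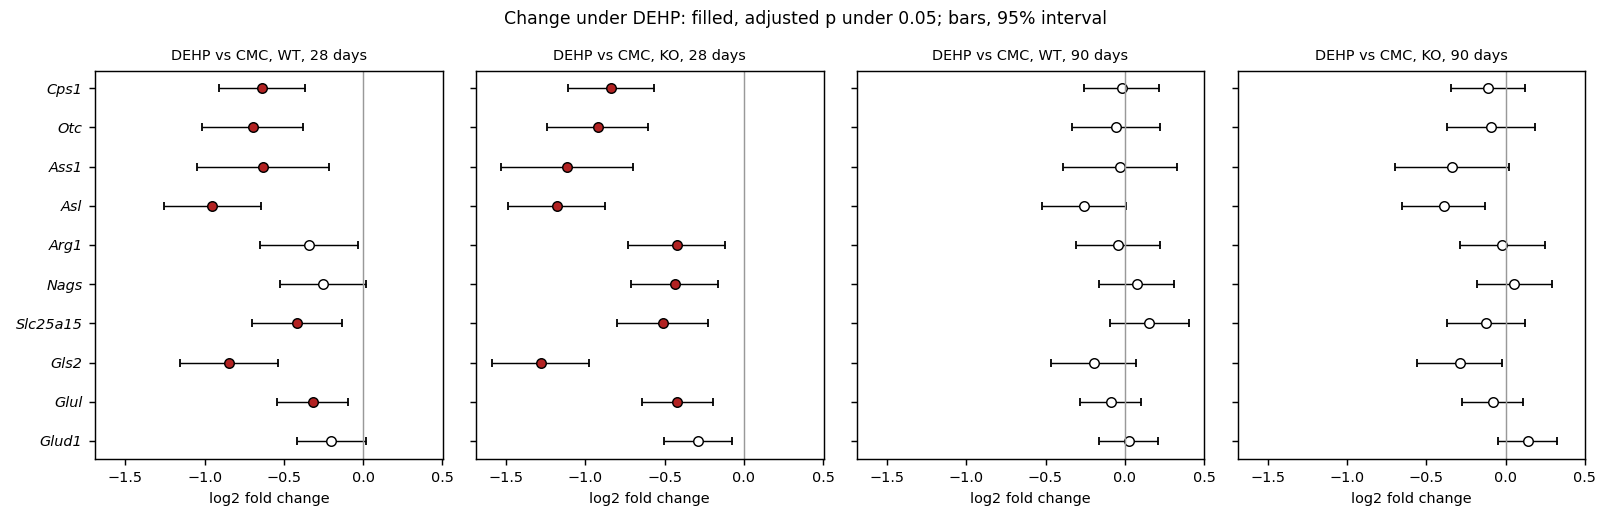
Log2 fold change of DEHP against CMC for each gene (horizontal axis, log2(FPKM + 1) scale) in each genotype and time, with 95% intervals; filled points passed an adjusted p of 0.05. At 28 days 7 points are filled in WT and 9 in KO, all below 0, and at 90 days none is filled.

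After 90 days none of the 10 genes was called in either genotype, where 6.8% of all genes were called in WT and 5.65% in KO. The median log2 fold change of the 10 genes was -0.04 in WT and -0.10 in KO, against -0.0124 and 0.0297 over all genes tested. Across all genes 2232 had an unadjusted p under 0.05 in WT and 2000 in KO. Cps1 held 608 ± 23.7 FPKM in WT CMC and 602 ± 54.9 in WT DEHP (SD, n = 4), which is -0.02 on the log2 scale with a 95% interval of -0.26 to 0.22. Otc was at 144 and 138 FPKM in the same groups (log2 -0.06, 95% interval -0.33 to 0.22), and Arg1 at 759 and 743 (log2 -0.04, 95% interval -0.31 to 0.22). Ass1 stood at 1453 ± 177 FPKM in WT CMC and 1417 ± 92.8 in WT DEHP (log2 -0.03, 95% interval -0.39 to 0.33), and Gls2 at 108 ± 8.03 and 94.8 ± 10.3 (log2 -0.20, 95% interval -0.46 to 0.07). In KO at 90 days the log2 fold changes were -0.11 for Cps1, -0.09 for Otc and -0.02 for Arg1.

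Asl had the lowest adjusted p of the 10 genes at 90 days in both genotypes. It read 223, 205, 172 and 189 FPKM in WT CMC and 164, 143, 173 and 178 in WT DEHP (replicates 1 to 4), which overlap (log2 -0.26, 95% interval -0.52 to 0.005, adjusted p = 0.261). KO libraries read 253, 189, 286 and 267 FPKM under CMC and 179, 184, 170 and 220 under DEHP, where CMC replicate 2 and DEHP replicate 4 overlap (log2 -0.39, SE 0.13, adjusted p = 0.0744). Asl in KO was called lower without KO CMC replicate 2 (log2 -0.52, adjusted p = 0.016) and without the libraries low in endothelial markers (log2 -0.47, adjusted p = 0.0312), and its adjusted p ran from 0.01 to 0.846 over 18 alternatives. Without the 5 libraries with pancreas transcripts its log2 fold change was -0.16 (adjusted p = 0.846), with KO DEHP replicate 4 alone set against KO CMC.

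Gls2 in KO at 90 days read 133, 124, 145 and 130 FPKM under CMC and 113, 100, 100 and 122 under DEHP, the only gene of the 10 whose groups did not overlap there, against 3.46% of all genes lower without overlap. Its log2 fold change of -0.29 was not called (adjusted p = 0.225). Ass1 in KO read 1854, 1852, 2066 and 2000 FPKM under CMC and 1556, 1382, 1203 and 2146 under DEHP, so DEHP replicate 4 was the highest of all 8. Replicates 1, 2 and 3 of KO DEHP are those with pancreas transcripts and replicate 4 the one low in endothelial markers, and the part of either in these values was not tested. Without the 5 libraries with pancreas transcripts the KO difference at 90 days changed from log2 -0.34 to 0.14 for Ass1 and from -0.29 to -0.12 for Gls2, with KO DEHP then resting on replicate 4 alone. None of the 10 genes was called in that setting at 90 days in either genotype.

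The remaining genes showed small differences at 90 days. Slc25a15 had means of 71.9 FPKM in WT CMC and 80.2 in WT DEHP and of 69.9 and 63.6 in KO. Nags was at 32.3 and 34.1 FPKM in WT and at 34.6 and 35.9 in KO. Glul was at 342 and 322 FPKM in WT and at 346 and 328 in KO. Glud1 was at 320 and 325 FPKM in WT and at 307 and 338 in KO. Their log2 fold changes lay between -0.12 and 0.15, each with an interval that includes 0.

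The difference between the times was tested itself, as DEHP against CMC at 90 days minus the same at 28 days, averaged over genotypes. It was positive for all 10 genes and called for 8, where 4.99% of all genes were called higher and 9.82% in either direction. The values were 0.82 for Gls2 (adjusted p = 0.000269), 0.74 for Asl (0.000675), 0.74 for Otc (0.0012), 0.69 for Ass1 (0.0183), 0.67 for Cps1 (0.000609), 0.48 for Slc25a15 (0.0168), 0.41 for Nags (0.0345) and 0.33 for Glud1 (0.0333). Arg1 (0.35, adjusted p = 0.119) and Glul (0.29, adjusted p = 0.077) were not called. Nags and Glud1 were lost in 12 of 36 alternatives each, with adjusted p up to 0.0809 and 0.104. Length of exposure and the sex-chromosome transcripts cannot be told apart in this difference. Over the mean of the 4 genotype and time strata, the log2 fold changes under DEHP ran from -0.70 for Asl to -0.08 for Glud1. This mean joins 28 days with 90 days, and at 90 days none of the 10 genes was called in either genotype. In the mean DEHP lowered 8 of the 10 genes, all but Nags and Glud1, where 15.8% of all genes were called lower and 36.1% in either direction. Of the 8, Arg1 lost its limma call without WT DEHP replicate 6 (adjusted p = 0.0505) or KO CMC replicate 7 (0.0523), both of 28 days. Slc25a15 changed from log2 -0.23 to -0.18 without the libraries with pancreas transcripts, where KO DEHP at 90 days rests on replicate 4 alone.

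Genotype left these genes without a call. None of the 10 was called between KO and WT under CMC at 28 days (0.0446% of all genes called), DEHP at 28 days (0.0178%), CMC at 90 days (0.00892%), DEHP at 90 days (0.508%) or over the mean of the 4 (0.392%). At an unadjusted p under 0.05 there were 527, 672, 760, 1334 and 1419 genes in the same order. Under CMC at 28 days Nags read 45.2 to 51.1 FPKM in KO and 44 to 44.5 in WT, without overlap, where 10.4% of all genes did not overlap in either direction (log2 0.10, 95% interval -0.17 to 0.38, adjusted p = 0.931). The other 9 genes overlapped there, with log2 differences from -0.09 for Gls2 to 0.22 for Glul. Under CMC at 90 days Ass1, Gls2 and Cps1 were higher in every KO library than in every WT library, where 3.76% of all genes did not overlap in either direction. Ass1 there read 1599, 1205, 1448 and 1559 FPKM in WT and 1852 to 2066 in KO, a log2 difference of 0.43 (95% interval 0.07 to 0.79, adjusted p = 0.617). Asl differed by 0.32 (95% interval 0.06 to 0.58, adjusted p = 0.59) and Gls2 by 0.29 (95% interval 0.02 to 0.56, adjusted p = 0.674) in the same comparison, and the other 7 genes lay between -0.06 for Glud1 and 0.14 for Cps1. Over the mean of the 4 the differences ran from -0.07 for Slc25a15 to 0.11 for Asl.

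Under DEHP at 28 days Gls2 was lower in every KO library than in every WT library, where 3.07% of all genes were lower without overlap, and its log2 difference of -0.53 (95% interval -0.84 to -0.22) was not called (adjusted p = 0.518). The other 9 lay between -0.41 for Ass1 and 0.12 for Glul. Slc25a15 under DEHP at 90 days read 57.3 to 72.2 FPKM in KO and 73.9 to 87.1 in WT, a log2 difference of -0.33 (95% interval -0.58 to -0.08, adjusted p = 0.251), where 1.69% of all genes were lower without overlap. Of the 4 KO libraries 3 hold pancreas transcripts, and without the libraries that do the difference was -0.14 (adjusted p = 0.884). In that comparison the other 9 genes lay between 0.006 for Otc and 0.20 for Gls2. The response to DEHP at 28 days was tested for a difference between genotypes by an interaction term. All 10 values were negative, from -0.08 for Arg1 to -0.48 for Ass1 and -0.44 for Gls2, and none was called (each adjusted p = 1; 0.0178% of all genes were called). The intervals stayed wide, from -1.07 to 0.11 for Ass1, and only that of Gls2 (-0.87 to -0.002) excluded 0. At 90 days no gene of the 10 and none of the 11213 was called in the interaction, with 653 genes at an unadjusted p under 0.05, and the 10 values ran from -0.31 for Ass1 to 0.12 for Glud1.

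**Figure D3:**
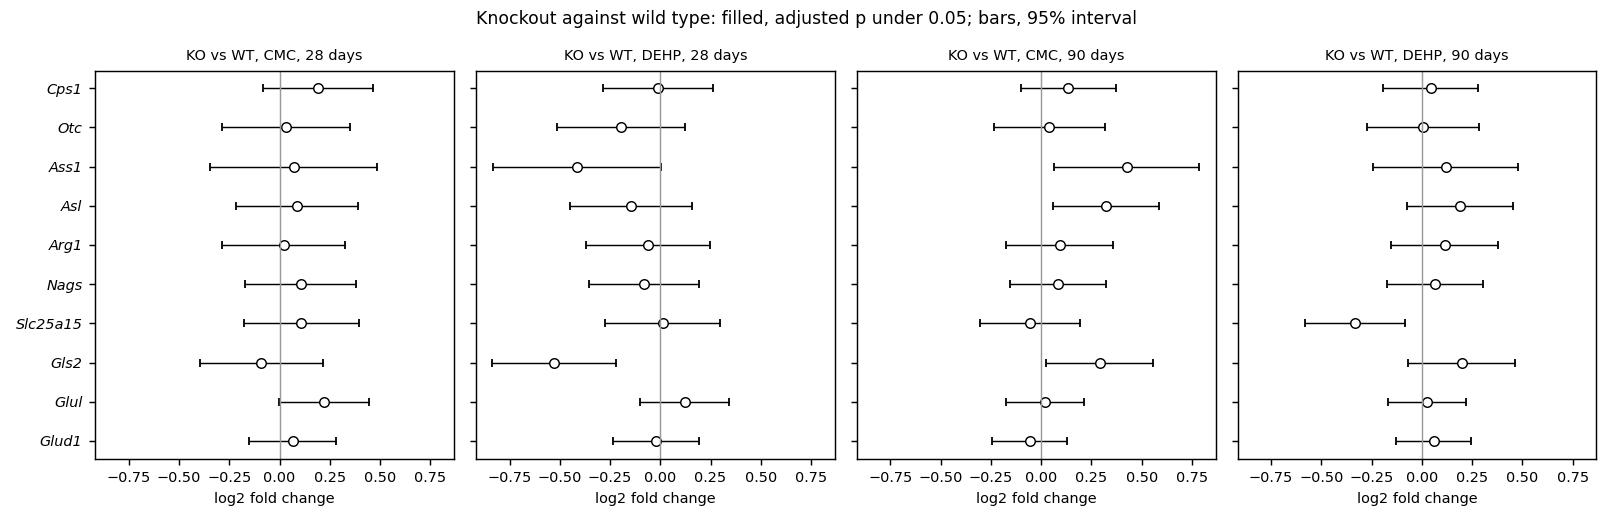
Log2 difference of KO against WT for each gene (horizontal axis, log2(FPKM + 1) scale) under each agent and time, with 95% intervals; open points did not pass an adjusted p of 0.05, and none is filled. Gls2 under DEHP at 28 days lies lowest at -0.53, and Ass1 under CMC at 90 days highest at 0.43.

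Added together, the 5 cycle enzymes Cps1, Otc, Ass1, Asl and Arg1 gave 4152 ± 376 FPKM in WT CMC and 2824 ± 768 in WT DEHP at 28 days (SD, n = 3), or 0.782% and 0.539% of all FPKM. WT DEHP replicate 5 stood at 3710 FPKM, above its group's other libraries at 2369 and 2393. KO liver at 28 days gave 4394 ± 674 FPKM under CMC and 2366 ± 340 under DEHP. The sums of the 90-day groups were 3161 ± 207 and 3064 ± 172 FPKM in WT and 3819 ± 196 and 3319 ± 506 in KO (SD, n = 4). KO DEHP replicate 4 was highest in its group at 4006 FPKM.

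Hepatocyte markers moved with these genes at 28 days. The 6 markers Alb, Ttr, Apoa1, Apoc3, Serpinc1 and Hnf4a summed to 50359 to 61496 FPKM in WT CMC and 33363 to 39248 in WT DEHP, and to 55267 to 56073 and 32768 to 36661 in KO. Of the 6, 4 fell in WT and 5 in KO, with medians of -0.55 and -0.75 on the log2 scale. Among all genes tested 6.17% were called lower in WT and 8.77% in KO. At 90 days 0 of the 6 fell in WT and 1, Apoc3, in KO. At that time 6.8% of all genes tested were called in either direction in WT and 5.65% in KO. None of 8 Kupffer cell and macrophage markers or 6 endothelial markers was called in any of the 4 DEHP comparisons. Kupffer cell markers summed to 139 to 361 FPKM in WT CMC and 125 to 314 in WT DEHP at 28 days, and endothelial markers to 40.74 to 124.97 and 30.41 to 128.78. Of 6 stellate cell and matrix markers, Des and Dcn fell in WT and Reln in KO at 28 days. Of 3 adipocyte markers tested, Cidec, a lipid droplet protein, rose at 28 days in both genotypes, and the 5 of the list summed to 0.34 to 0.75 FPKM in WT CMC, 1.66 to 3.57 in WT DEHP, 0.25 to 0.58 in KO CMC and 2.63 to 4.83 in KO DEHP. In KO at 90 days 8 of 9 exocrine pancreas markers and the adipocyte markers Adipoq and Retn were called higher under DEHP. So was Cd79a, the only 1 of 5 lymphocyte markers tested. Pancreas sums were 30.4 to 40.25 FPKM in KO CMC and 48.17 to 32730 in KO DEHP, where replicates 1, 2 and 3 held over 100. No bile duct, neutrophil or erythroid marker was called in the 4 DEHP comparisons. The part of these markers in the differences of the 10 genes was not tested.

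**Figure D4:**
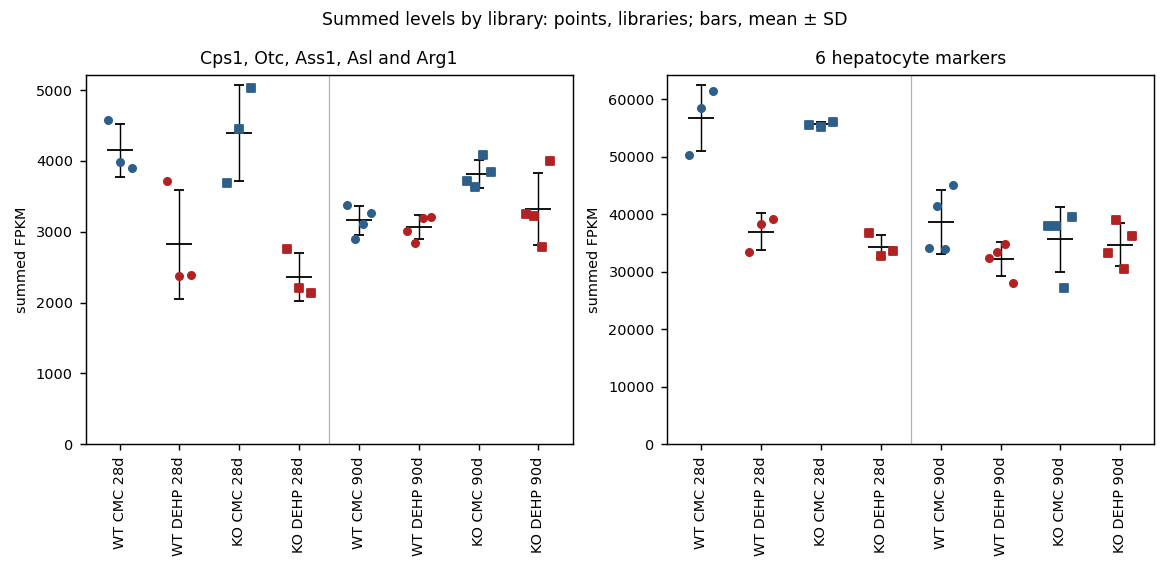
Summed FPKM by library (vertical axes, linear and from 0) of the 5 cycle enzymes on the left and of 6 hepatocyte markers on the right; circles WT, squares KO, blue CMC, red DEHP, bars mean and SD. In both panels the vehicle libraries of 28 days stand highest on average, and at 90 days the ranges of the 2 agents overlap in each genotype.

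Enzymes that feed or drain the cycle did not share one direction. Of 16 nitrogen partners tested, 3 rose and 1 fell in WT at 28 days, 4 rose and 3 fell in KO at 28 days, 4 rose in WT at 90 days and 3 rose in KO at 90 days. In the same order 16.5%, 20.4%, 6.8% and 5.65% of all genes tested were called in either direction. Got2, the mitochondrial aspartate aminotransferase, rose at 28 days by log2 0.45 in WT (adjusted p = 0.00163) and 0.38 in KO (0.00584). Aldh4a1, which oxidizes the proline product to glutamate, rose in all 4 comparisons, by log2 0.40 to 0.57 (adjusted p from 0.00194 to 0.0303). Sirt5, a mitochondrial deacylase that acts on CPS1, rose by log2 0.57 in WT (0.018) and 0.71 in KO (0.00264) at 28 days and by 0.54 in WT at 90 days (0.022). Agmat, agmatinase, fell at 28 days by log2 0.49 in WT (0.0159) and 0.42 in KO (0.0333). Prodh, proline dehydrogenase, fell by log2 0.94 in KO at 28 days (0.00606). Gpt2, the mitochondrial alanine aminotransferase, fell in KO at 28 days (log2 -0.42, 0.0166) and rose in WT at 90 days (log2 0.45, 0.0114). Car5a, the mitochondrial carbonic anhydrase that supplies bicarbonate to CPS1, rose at 90 days by log2 0.44 in WT (0.033) and 0.45 in KO (0.036), and is named outside the rule after its values were seen. Sirt3 and Asns, also outside the rule, had smaller adjusted p than Car5a. They rose in KO, Sirt3 by log2 0.39 at 90 days (0.0179) and Asns by log2 0.92 at 28 days (0.0302). None of the 3 pyrimidine synthesis genes Cad, Dhodh and Umps was called in any of the 4 DEHP comparisons.

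Of 12 genes of amino acid, ammonia and urea transport 10 were tested, as Slc7a9 and Slc14a1 did not pass the filter. Slc1a2, a glutamate transporter of central-vein hepatocytes, fell at 28 days, with log2 fold changes of -1.09 in WT (adjusted p = 4.4e-06) and -0.90 in KO (4.01e-05). It also fell at 90 days in WT (-0.42, 0.0375). Slc3a1, a subunit of the cystine and basic amino acid transporter, fell by log2 0.74 in KO at 28 days (0.0463), 1.34 in WT at 90 days (0.00059) and 0.88 in KO at 90 days (0.0236). The transporter Slc38a4 rose in WT at 28 days (log2 0.38, 0.0154), Slc43a1 fell in KO at 28 days (log2 -0.84, 0.00637) and Slc38a2 fell in WT at 90 days (log2 -0.98, 0.00157). The list's called genes numbered 2, 3, 3 and 1 in WT and KO at 28 days and WT and KO at 90 days. In the same order 16.5%, 20.4%, 6.8% and 5.65% of all genes tested were called in either direction.

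Of 14 regulators of nitrogen metabolism tested, 4 fell in WT and 3 in KO at 28 days and none rose. Hnf4a, among those that fell, is also counted with the hepatocyte markers above. Among all genes tested 6.17% were called lower in WT and 8.77% in KO. Hnf4a, a hepatocyte transcription factor, fell by log2 0.60 in WT (adjusted p = 0.0118) and 0.83 in KO (0.000501). Cebpa, another, fell by log2 0.56 in WT (0.0127) and 0.61 in KO (0.00558), and Ctnnb1, encoding beta-catenin, by 0.32 (0.0309) and 0.35 (0.0139). Klf15, a factor known to drive amino acid breakdown, fell in WT (log2 -0.57, 0.02) and was at -0.42 in KO, not called (0.0805). At 90 days Foxo1 fell in WT (log2 -0.54, 0.0149) and no regulator was called in KO, where 6.8% and 5.65% of all genes were called.

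Genes of both liver zones were among those lowered at 28 days, where 6.17% of all genes tested were called lower in WT and 8.77% in KO. Of 10 periportal genes 2 fell in WT and 5 in KO, with Hal, histidine ammonia-lyase, at log2 -0.89 (adjusted p = 0.000265) and -1.38 (6.31e-07) and Cdh1, E-cadherin, at -0.64 (0.0274) and -0.62 (0.0293). Sds, serine dehydratase, fell in KO (log2 -1.33, 0.000896), as did Uroc1, urocanate hydratase (log2 -0.60, 0.00146), and Gldc, glycine decarboxylase (log2 -0.60, 0.00422). Of 15 pericentral genes 5 fell in WT, and 5 fell and 1 rose in KO, with Gulo at log2 -0.81 (0.00281) and -0.98 (0.000331) and Lect2 at -0.69 (0.00182) and -0.73 (0.000901). Cyp27a1, a sterol hydroxylase of bile acid synthesis, fell by log2 0.40 (0.00689) and 0.70 (1.25e-05), and Nkd1, an inhibitor of Wnt signalling, by 0.60 (0.00539) and 0.75 (0.00053). With Slc1a2, given above among the transporters, these are the 5 that fell. The organic cation transporter Slc22a3 rose in KO at 28 days (log2 0.63, 0.00749) and in WT at 90 days (log2 0.54, 0.0211). The median log2 fold change was -0.45 in WT and -0.60 in KO for the periportal list, and -0.21 and -0.15 for the pericentral list. At 90 days no periportal gene was called in either genotype. Of the pericentral genes 2 fell and 1 rose in WT there, and 1 rose and none fell in KO. The shares of all genes called there were 6.8% and 5.65%.

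**Figure D5:**
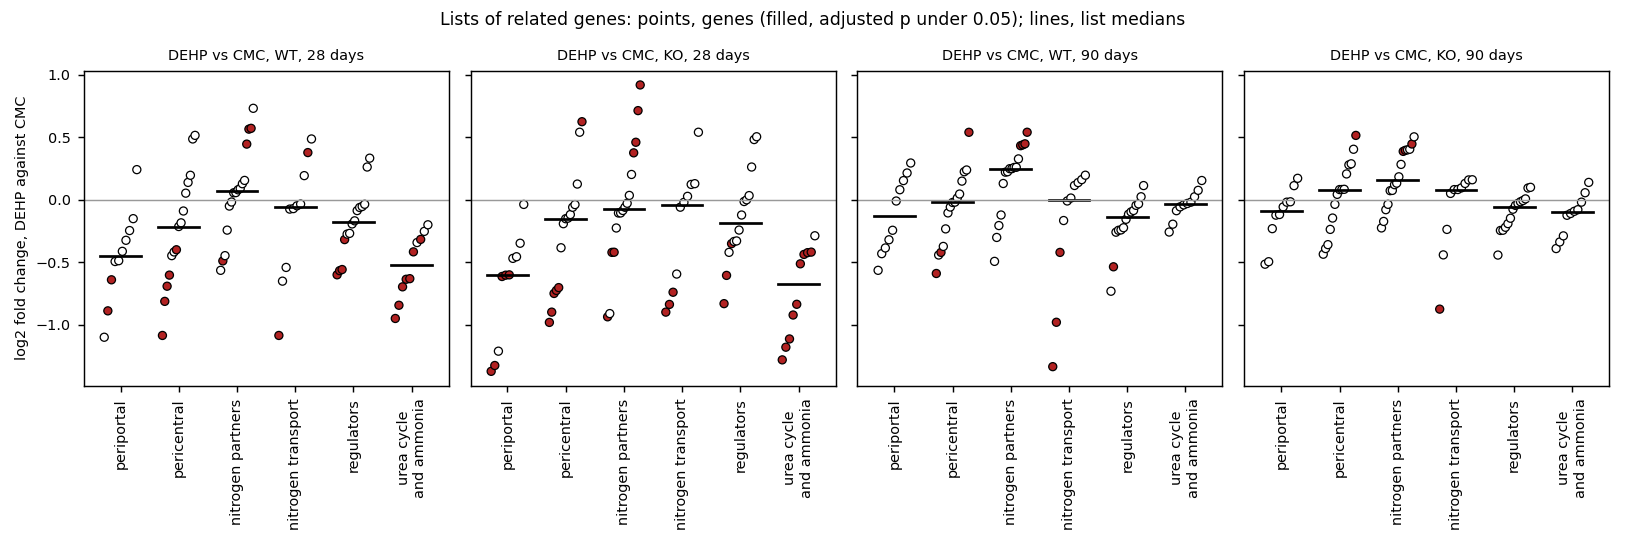
Log2 fold change of DEHP against CMC (vertical axis, log2(FPKM + 1) scale) for the genes of each related list, by genotype and time; filled points passed an adjusted p of 0.05 and lines give list medians. At 28 days the urea cycle and ammonia genes have the median of -0.53 in WT and -0.68 in KO and the nitrogen partners lie on both sides of 0.

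Across the 28 libraries, after centring within each time, the 10 genes varied together to different degrees. Pearson's r ran from 0.187 for Arg1 with Glud1 to 0.929 for Ass1 with Gls2, and was 0.927 for Asl with Gls2 and 0.885 for Ass1 with Asl. These values describe libraries that share the agent and the scaling by library. By the same measure the genes most like the mean of the 5 cycle enzymes were Gnmt (r = 0.948), F7 (0.94), Pipox (0.936), Iyd (0.936) and Apoh (0.923). For Glul they were Slc16a10 (r = 0.84), Nfix (0.835), Masp1 (0.831), Map3k5 (0.828) and Tle1 (0.823).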

How the data were processed

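RNA from whole liver was sequenced in 28 libraries. The authors deposited FPKM per gene and library, to 2 decimals. Per the submitters' processing notes Cuffdiff and the builds mm10 and GRCm38 were used; the aligner, the read totals and whether counting used strand were not given in the sources used here. Groups came from the labels, and columns were matched to libraries by the labelled names. Positions and promoters came from RefSeq tables of GRCm38.p6.

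FPKM is not a count, so log2(FPKM + 1) was fitted with limma 3.58.1 in R 4.3.3 (8 group means, all 28 libraries, variance trend, 20 residual and 4.17 prior degrees of freedom). The filter kept genes reaching 1 FPKM in 3 or more libraries, which left 11213 for 13 comparisons. Tests were two-sided, with Benjamini-Hochberg adjustment over all genes tested and calls at an adjusted p under 0.05. Fold changes understate the change of low genes. Means and SDs are of FPKM. The genes and lists were chosen with earlier results of these data known; lists are described by counts and medians without a test. The rule for named genes took all 10 genes, given singly or as a range in each comparison, list genes when called under DEHP (up to 6 per list by adjusted p), and 5 genes by likeness of pattern to the cycle enzymes and to Glul.

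Alternatives were a pseudocount of 0.1, no filter, a filter of 5 FPKM, upper quartile scaling, fits of the same time or the 2 groups, the replicate number as a block, and leaving out each library. Chosen after seeing the data were leaving out the 5 libraries with pancreas transcripts, leaving out the 3 libraries low in endothelial markers, and scaling by the total without the 50 most abundant genes. Whether replicate numbers pair libraries was checked from residual correlations of same-numbered libraries. In WT at 90 days, DEHP against CMC, all 4 were above 0.1 (0.262, 0.252, 0.22 and 0.665), and the block called 0 of the 10 genes there, as without it. The value of 0.665 is that of replicate 4, where both libraries hold pancreas transcripts. No other comparison had every pair above 0.1. The depth estimate used 1033 genes with short transcripts, in which 58.0% to 73.0% of low values lay within 0.15 of a whole number of fragments, so it is approximate and gives no counting interval. Tables and plots were made in Python 3.11.15 (pandas 2.3.3, numpy 2.4.6, matplotlib 3.10.9).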

Additional observations from a re-analysis of the deposited data

Results flagged for a closer look

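In 8 of the 10 genes the DEHP effect differed between 90 and 28 days by an interaction term of limma (adjusted p under 0.05). The differences on the log2 scale were 0.67 for Cps1, 0.74 for Otc, 0.69 for Ass1, 0.74 for Asl, 0.41 for Nags, 0.48 for Slc25a15, 0.82 for Gls2 and 0.33 for Glud1, positive where the value of 90 days lay above that of 28 days. The libraries of the 2 times also differ in Xist and the Y-linked transcripts, and length of exposure and these transcripts cannot be told apart.

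In the WT DEHP group of 90 days, replicate 2 held Glud1 at 274.46 FPKM, apart from the other 3 libraries at 338.62 to 345.46, with a gap of 0.904 of the group's range against a 95% critical value of 0.829. Chance marks about 1 in 20 groups, and 40 groups of 4 libraries were examined.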

How the results depend on the processing

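No gene's call reversed direction in 2820 pairs of a gene's comparison and an alternative: 2737 kept their side of the threshold, 60 lost a call and 23 gained one. Cps1, Otc, Asl and Gls2 kept their calls at 28 days in every alternative run, in both genotypes. In WT at 28 days the 7 called genes became 4 with no filter on low values, 4 in a fit of the same time point and 4 in a fit of the 2 groups, and 4 to 7 with 1 library left out. In KO at 90 days the 0 called genes became 1, Asl, with upper quartile scaling, without the libraries low in endothelial markers, and with scaling by the total without the 50 most abundant genes, and 0 to 1 with 1 library left out. Leaving out 1 library gave 6 to 8 in KO at 28 days (9 with all), 0 in WT at 90 days, 7 to 9 over the mean of the strata, 6 to 9 in the DEHP by time interaction (both 8 with all), and 0 in the genotype comparisons and interactions. The replicate block gave 6 in WT and 8 in KO at 28 days, 0 at 90 days, and 8 in the mean and in the time interaction; Glul in WT and Arg1 in KO were the calls it lost.

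Scaling by the total without the 50 most abundant genes moved the median of all genes to -0.1031 in WT and -0.1495 in KO at 28 days, and called 10 of 10 genes lower in both. Upper quartile scaling lowered the share of higher calls among all called genes from 62.6% to 50.4% and from 57% to 45.8% at 28 days, and from 73% to 60.5% and from 79.1% to 57.1% at 90 days, in WT and KO. It lowered that share from 68.4% to 44.8% for KO against WT under DEHP at 90 days, from 56.2% to 41% for the mean DEHP effect and from 68.2% to 53.3% for the mean genotype effect.

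Counts over all genes moved by over 1.5 times too. In the fit of 2 groups they were 1044 against 1850 in WT at 28 days, 367 against 762 in WT and 409 against 633 in KO at 90 days, and 12 against 57 for KO against WT under DEHP at 90 days. Without the pancreas libraries they were 494 in WT and 224 in KO at 90 days, 727 against 1101 in the time interaction, 15 against 57, and 12 against 44 in the mean genotype effect; with 1 library left out they reached 379 in WT and 252 in KO at 90 days, 16 to 104 for KO against WT under DEHP at 90 days, and 18 to 67 in the mean genotype effect. The cause was not tested.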
